A study of Mus musculus with 18 samples.

Results

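The Sec61 translocon is the protein-conducting channel of the endoplasmic reticulum (ER) membrane, and the TRAP complex is a stable companion of it. They are described here at the level of mRNA in mouse liver, through 10 genes of the 22524 for which counts were listed: *Sec61a1*, *Sec61b* and *Sec61g*, which encode the channel; *Sec62* and *Sec63*, its partners in post-translational import; *Ssr1*, *Ssr2*, *Ssr3* and *Ssr4*, which encode the TRAP subunits; and *Tram1*. The genes were chosen by symbol and found in the count lists by their Ensembl identifiers. Liver RNA was sequenced from female C57BL/6 mice at 15 months of age, with 1 library per mouse. The A226Y group (n = 10) was heterozygous for *Rps2*-A226Y, a mutation of a protein of the small ribosomal subunit that makes decoding error-prone. Its allele carried a transcriptional STOP cassette between loxP sites, which CMV-Cre, a Cre recombinase expressed throughout the body, removed in only part of the cells, so that each animal was a mosaic in which cells with the intact cassette had 1 working *Rps2* allele. The controls were wild-type mice (WT, n = 8) that also carried CMV-Cre.

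Secreted and membrane proteins enter the ER while they are being made. A ribosome with an emerging signal sequence is brought by the signal recognition particle (SRP) to its receptor, and the chain then passes through the Sec61 pore, where signal peptidase, oligosaccharyltransferase and lumenal chaperones act on it. Hepatocytes secrete most plasma proteins and depend heavily on this route. TRAP and TRAM help particular signal sequences to open or engage the channel, and Sec62 and Sec63 serve proteins that reach it after synthesis, with Sec63 recruiting the lumenal chaperone BiP (*Hspa5*).

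Total counts ran from 23850565 to 62126131 in the A226Y mice and from 25869192 to 34918732 in the WT mice. Expression is given as CPM, the count of a gene relative to the library size after TMM scaling, which sums over all transcripts of a gene and cannot separate fewer cells of a type from less RNA per cell. *Rps2* itself had a median of 72.5 CPM in A226Y (46.9 to 83.04 CPM) and 109.2 CPM in WT (103.9 to 143.1 CPM), and its ranges did not overlap. A226Y 29 stood apart from the other mice: the acute-phase gene *Saa1* was at 6102 CPM, against 10.5 to 28.8 CPM in the other A226Y mice and 14.9 to 556.0 CPM in WT, and its neutrophil markers summed to 46.9 CPM, against at most 17.8 CPM in any other mouse. Albumin and the other 4 hepatocyte markers were abundant in every mouse, with a sum of 65660 to 138400 CPM in A226Y and 81560 to 165900 CPM in WT. Of 45 tested markers of 9 liver and blood cell types, 1 was higher and 2 were lower at an adjusted p-value under 0.05, where 14.3% of all tested genes passed, and no marker was at 0 in every mouse. The fold changes of 28 of the 45 were negative, whether or not they passed.

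For the smallest channel subunits, the reads themselves limit what can be counted. Reads were 50 bases long, and stretches of 50 bases that also occur in transcripts of other annotated genes cannot be assigned from sequence alone. Such stretches made up 18.3% of those in the coding transcripts of *Sec61g* (371 of 2024, all of them also in the pseudogene *Gm10177*) and 31.5% of those of *Sec61b* (218 of 693, mostly shared with *Gm10320*). They were 0.229% for *Ssr1* and 0.0837% for *Sec63*, and 0 for the other 6 genes. The coding sequences of both subunits, read from the GENCODE M21 transcripts of GRCm38, are shown with capitals where a base lies in a shared stretch. The annotation behind the deposited counts may have been another one.
*Sec61g*: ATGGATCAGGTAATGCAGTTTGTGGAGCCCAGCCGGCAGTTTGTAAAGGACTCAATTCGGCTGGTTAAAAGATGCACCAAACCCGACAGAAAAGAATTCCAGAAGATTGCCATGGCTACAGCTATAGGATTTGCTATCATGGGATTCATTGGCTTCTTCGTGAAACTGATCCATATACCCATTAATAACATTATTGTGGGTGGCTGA
*Sec61b*: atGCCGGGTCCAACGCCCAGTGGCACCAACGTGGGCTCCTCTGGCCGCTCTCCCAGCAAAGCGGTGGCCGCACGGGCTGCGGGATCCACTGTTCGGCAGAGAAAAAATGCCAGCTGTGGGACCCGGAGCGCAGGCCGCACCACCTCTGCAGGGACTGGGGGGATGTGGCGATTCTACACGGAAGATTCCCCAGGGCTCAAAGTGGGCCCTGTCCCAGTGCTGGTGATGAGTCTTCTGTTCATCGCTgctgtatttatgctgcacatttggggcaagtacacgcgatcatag
The whole of the *Sec61g* coding sequence (207 bases, 68 residues) is in capitals, and 244 of the 291 bases of *Sec61b* (96 residues) are. *Gm10320*, the only one of these look-alikes among the listed genes, had between 0 and 4 counts per mouse, and the others were not listed. The values of *Sec61g* and *Sec61b* are therefore uncertain in absolute terms.

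None of the 10 genes differed between A226Y and WT at an adjusted p-value under 0.05 (edgeR's quasi-likelihood test, two-sided, Benjamini-Hochberg adjustment over 13353 tested genes), where 14.3% of all tested genes did, 7.27% higher and 7.03% lower. That share moved with single mice: 1910 genes passed with all mice, 1255 without WT 14 and 2560 without A226Y 29. All 10 were tested. At an unadjusted p-value under 0.05, *Sec63* and *Ssr1* were higher and none was lower, against 29.6% of all tested genes (14.9% higher, 14.7% lower). With DESeq2 on the same counts, both genes were past the adjusted threshold (9.34% of all genes were higher by that test). The median log2 fold change of the 10 genes was 0.04, and that of all tested genes was −0.0044. The fold changes of the members were small, from −0.14 to 0.19 on the log2 scale.

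**Figure D1:**
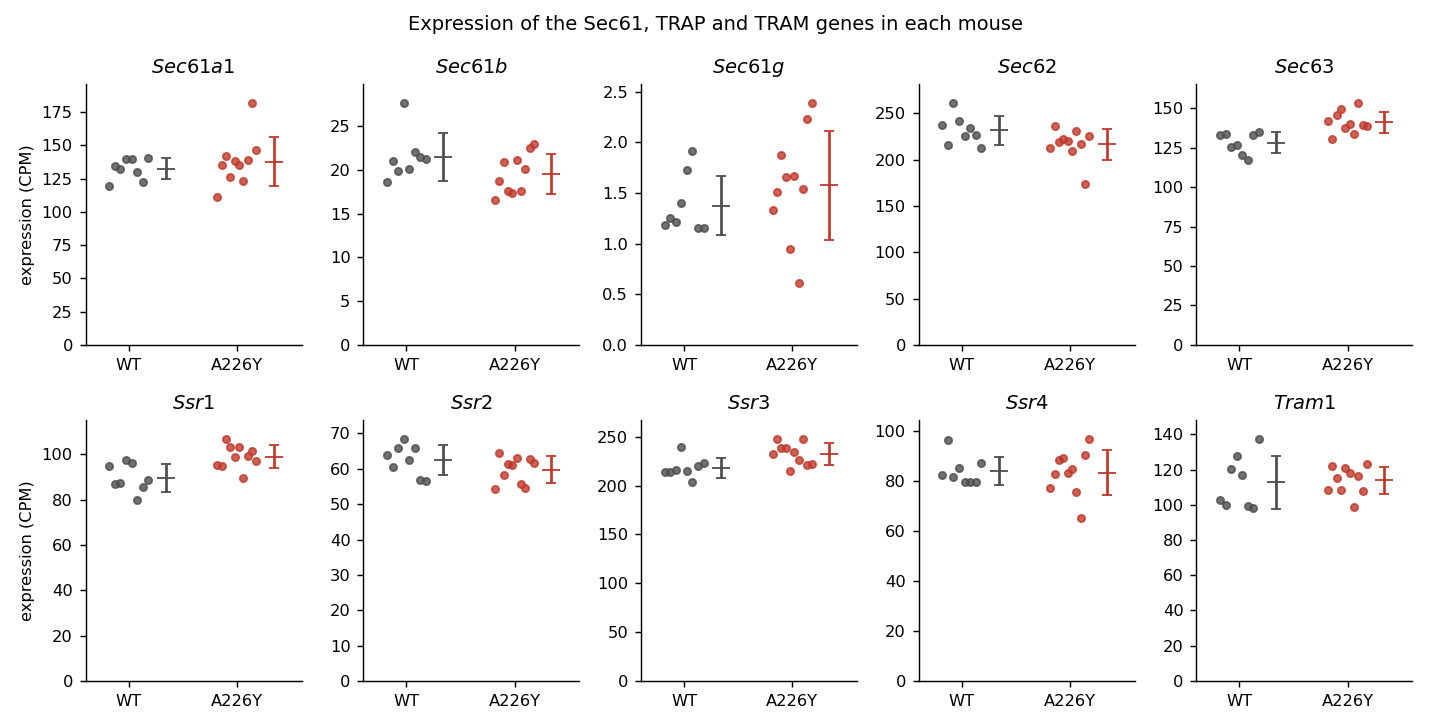
Expression in CPM (vertical axes, each from 0) of the 10 genes, 1 panel per gene; each point is 1 mouse, WT in grey (n = 8) and A226Y in red (n = 10), with the mean and SD beside the points. The ranges of the 2 genotypes overlap in every panel, also for *Sec63*, in which 8 of 10 A226Y mice lie above every WT mouse.

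*Sec63* (ENSMUSG00000019802, chromosome 10 of GRCm38, 42761496 to 42832514, plus strand) encodes the J-domain protein that couples BiP to the channel. In A226Y it was lowest at 130.4, median 139.5 and highest at 153.3 CPM, and in WT it was 117.0, 129.8 and 134.8 CPM. All 10 A226Y mice lay above the WT mean and 8 above every WT mouse, while 4 WT mice lay below every A226Y mouse. The mean was 141.0 ± 6.92 CPM (SD, n = 10) against 128.0 ± 6.73 CPM (SD, n = 8), a log2 fold change of 0.14 (standard error 0.05, 95% interval 0.04 to 0.24, edgeR adjusted p = 0.0568). This corresponds to 1.1-fold (95% interval 1.03 to 1.18). The two-sided exact permutation test of this gene gave p = 0.000686, unadjusted.

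*Ssr1* (ENSMUSG00000021427, chromosome 13, 37966605 to 37994217, minus strand) encodes TRAP alpha, the subunit whose lumenal domain sits near the pore. It ranged from 89.7 to 106.8 CPM in A226Y (median 99.2) and from 79.96 to 97.6 CPM in WT (median 88.1). Again no A226Y mouse fell below the WT mean, 6 of 10 exceeded every WT mouse, and 5 WT mice were below every A226Y mouse. Every A226Y mouse lay above the WT mean in 6.63% of all tested genes. The means of *Ssr1* were 99.1 ± 5.03 CPM (SD, n = 10) and 89.7 ± 6.05 CPM (SD, n = 8), and the log2 fold change was 0.14 (standard error 0.05, 95% interval 0.04 to 0.25, edgeR adjusted p = 0.057). The exact permutation test gave p = 0.00267, unadjusted.

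*Ssr3* (ENSMUSG00000027828, chromosome 3, 65379655 to 65392623, minus strand) encodes TRAP gamma, the subunit with the most membrane spans. It was at 214.7 to 247.6 CPM in A226Y (median 233.0) and 203.5 to 239.8 CPM in WT (median 215.7). In 9 of 10 A226Y mice it was above the WT mean, and 3 WT mice were below every A226Y mouse. Its log2 fold change was 0.09 (95% interval −0.01 to 0.19, edgeR adjusted p = 0.228), and its exact permutation p was 0.0155, unadjusted. *Sec63*, *Ssr1* and *Ssr3* were the 3 of 10 genes with a permutation p under 0.05, all higher, where 29.5% of all tested genes had such a p and 15.0% were higher.

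The other TRAP subunits had fold changes at or below 0 in edgeR's fit without offsets, and above 0 with the length offset described below. *Ssr2* (TRAP beta, ENSMUSG00000041355, chromosome 3, 88575876 to 88588419, plus strand) lay at 54.2 to 64.6 CPM in A226Y (median 61.3) and 56.5 to 68.4 CPM in WT (median 63.1). This was a log2 fold change of −0.07 (95% interval −0.17 to 0.04, adjusted p = 0.404 from edgeR), and the ranges overlapped, with 3 A226Y mice below every WT mouse. *Ssr4* (TRAP delta, ENSMUSG00000002014, X chromosome, 73787028 to 73790830, plus strand) was at 65.1 to 96.9 CPM in A226Y (median 84.0) and 79.6 to 96.4 CPM in WT (median 82.2). The log2 fold change was −0.01 (95% interval −0.15 to 0.13, adjusted p = 0.93 from edgeR), with 5 A226Y mice above and 5 below the WT mean.

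Among the channel genes, *Sec61a1* (ENSMUSG00000030082, chromosome 6, 88503579 to 88518905, minus strand), which encodes the pore itself, was at 111.0 to 181.8 CPM in A226Y (median 136.5) and 119.5 to 140.7 CPM in WT (median 133.5). The highest value was that of A226Y 29, and the next was 146.3 CPM. The log2 fold change was 0.06 (95% interval −0.10 to 0.21, edgeR adjusted p = 0.643), which allows a change between a decrease of 6.5% and an increase of 15.9%. Without A226Y 29 it was 0.0061. The SD of *Sec61a1* was 18.6 CPM in A226Y, with A226Y 29 included, against 7.93 CPM in WT. The SD without that mouse is not given. *Tram1* went the other way, with an SD of 7.82 CPM in A226Y and 14.95 CPM in WT.

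*Sec61b* (ENSMUSG00000053317, chromosome 4, 47474658 to 47483242, plus strand), which encodes the beta subunit at the side of the pore, ran from 16.6 to 22.95 CPM in A226Y (median 19.4) and from 18.6 to 27.7 CPM in WT (median 21.2). In 8 of 10 A226Y mice it was below the WT mean, and 4 were below every WT mouse. Its log2 fold change of −0.14 (95% interval −0.30 to 0.03) did not pass the threshold (edgeR adjusted p = 0.255), and it rested partly on WT 14, the highest mouse, without which it was −0.0768. *Sec61g* (ENSMUSG00000078974, chromosome 11, 16500530 to 16508484, minus strand), which encodes the gamma subunit that clamps the pore from outside, had only 20 to 95 counts per mouse. It was at 0.607 to 2.39 CPM in A226Y (median 1.6) and 1.15 to 1.92 CPM in WT (median 1.23). The log2 fold change was 0.19 (standard error 0.21, 95% interval −0.24 to 0.63, edgeR adjusted p = 0.563), the widest interval of the 10 genes. The estimate moved with single mice, to 0.1121 without A226Y 32, 0.1251 without A226Y 29 and 0.2898 without A226Y 22, and passed the threshold in none of these fits.

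*Sec62* (ENSMUSG00000027706, chromosome 3, 30792875 to 30821263, plus strand), which encodes the membrane partner of Sec63 in import and in the clearance of excess ER, was at 173.7 to 236.1 CPM in A226Y (median 219.3) and 212.1 to 261.0 CPM in WT (median 230.5). In 9 of 10 A226Y mice it was below the WT mean. The log2 fold change was −0.10 (95% interval −0.22 to 0.03, edgeR adjusted p = 0.29), and the exact permutation p was 0.0648. A226Y 29 was the lowest, and without it the log2 fold change was −0.0666. *Tram1* (ENSMUSG00000025935, chromosome 1, 13564698 to 13589910, minus strand), which encodes the membrane protein that contacts nascent chains beside the pore, was at 98.7 to 123.0 CPM in A226Y (median 115.9) and 98.2 to 137.4 CPM in WT (median 109.7). The estimate was a log2 fold change of 0.01 (95% interval −0.13 to 0.16, edgeR adjusted p = 0.921). Whether the counting kept the strand of the reads is not known. Exons of *Sec61a1*, *Sec62*, *Sec63* and *Ssr2* share 549, 509, 173 and 239 bases with genes on the opposite strand that are not in the lists.

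**Figure D2:**
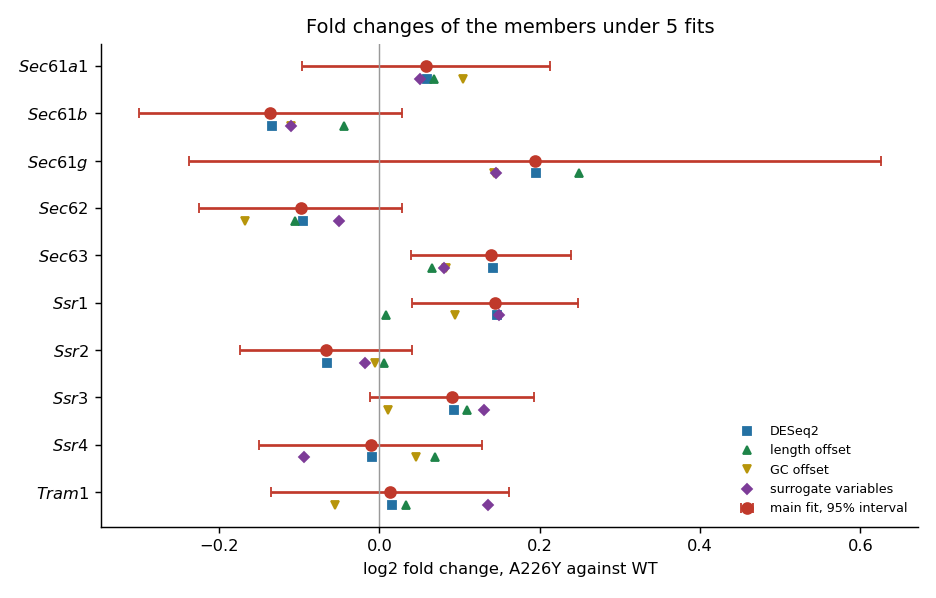
Log2 fold change of A226Y against WT (horizontal axis) for the 10 genes; red points and bars are edgeR's estimates with 95% intervals from 18 mice, and the marks below each are the estimates from DESeq2, with a per-library length offset, with a per-library GC offset and with surrogate variables as covariates. Only the intervals of *Sec63* and *Ssr1* leave out 0, and the length offset moves *Ssr1* from 0.14 to 0.0084.

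The libraries of both genotypes differed in how expression went with transcript length. The slope of log2 CPM per doubling of length, relative to the mean of all libraries, was above 0 in 9 of 10 A226Y libraries (−0.011 to 0.0951) and below 0 in 7 of 8 WT libraries (−0.0954 to 0.0103). The genes with the longest coding transcripts among the 10 are *Ssr1* (9333 bases) and *Sec63* (6032 bases), and the shortest is *Sec61b* (564 bases). When a loess curve on length was taken out of each library as an offset, the log2 fold change of *Ssr1* was 0.0084 (edgeR adjusted p = 0.944) and that of *Sec63* was 0.07 (adjusted p = 0.38). *Ssr3* (2957 bases) was at 0.11 with the offset (adjusted p = 0.151). *Sec61b* moved from −0.14 to −0.04, and *Ssr2* and *Ssr4* went from below 0 to 0.0059 and 0.0697. The slope of log2 CPM on GC content was below 0 in 8 of 10 A226Y libraries and above 0 in 6 of 8 WT libraries. It was highest in A226Y 29, at 0.1856 per 10 percentage points. With a loess offset for GC content, *Sec63* was at 0.08, *Ssr1* at 0.09 and *Ssr3* at 0.01, while *Sec62* went from −0.10 to −0.17 (edgeR adjusted p = 0.0549) and *Sec61a1* from 0.06 to 0.10. Both slopes went with genotype in these libraries, and their part in the differences was not tested beyond these offsets.

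**Figure D3:**
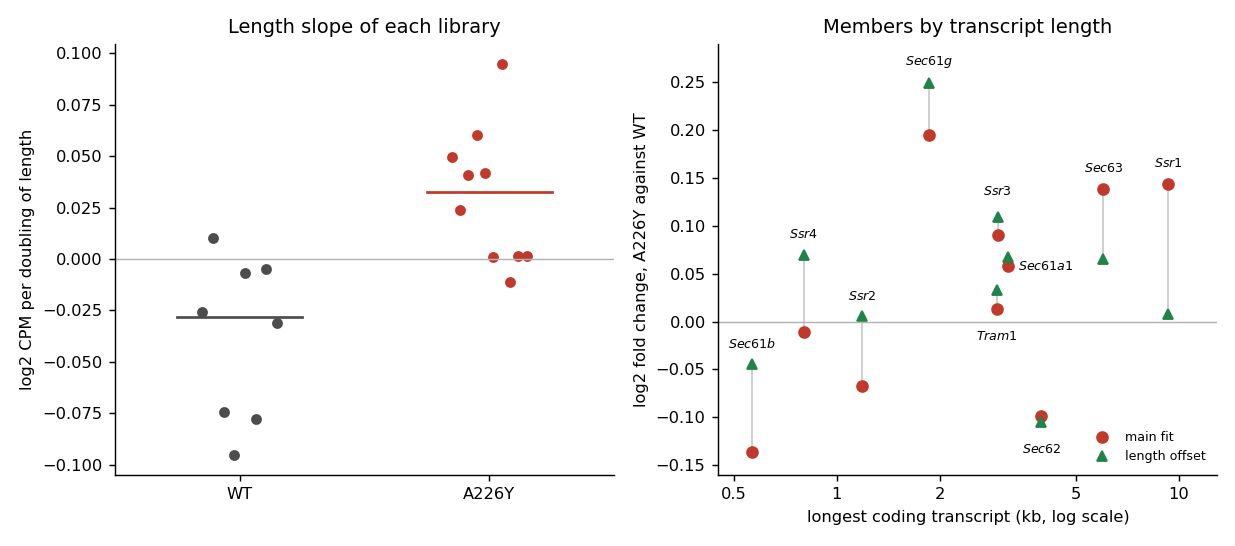
Left, the slope of log2 CPM per doubling of transcript length in each library (points) with the median of each genotype (lines); right, log2 fold change of A226Y against WT of the 10 genes against the length of their longest coding transcript (log scale), in edgeR's fit without (red) and with (green) the length offset. The 2 longest, *Ssr1* and *Sec63*, lie at 0.14 in red and the shortest, *Sec61b*, at −0.14, with no steady order between them, and the offset brings *Ssr1* to 0.0084.

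The spread between mice differed among the members. The SD of log2 CPM between mice of one genotype was 0.07 for *Ssr3*, below that of all but 0.27% of tested genes. It was 0.07 for *Sec63* (0.539% of genes had less), 0.09 for *Ssr1* and 0.10 for *Ssr2*, against a median of 0.21 over all tested genes, which include many with low counts. *Sec62* was at 0.11, *Ssr4* at 0.14, *Tram1* and *Sec61a1* at 0.15 and *Sec61b* at 0.17, and *Sec61g*, with the lowest counts, had 0.45. Among the 7827 tested genes that averaged 10 CPM or more the median was 0.1634, and the share of them with a smaller SD was 0.46% for *Ssr3*, 0.92% for *Sec63*, 31.2% for *Ssr4*, 37.7% for *Tram1* and 52.6% for *Sec61b*.

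Levels of different genes were compared per length, as counts divided by the union of exon lengths and scaled to a common sum per library. In WT, *Sec62* and *Ssr3* were highest at 133.9 ± 10.5 and 131.2 ± 7.3 (SD, n = 8), with overlapping ranges. *Tram1* (89.3 ± 9.64), *Ssr2* (84.3 ± 7.16) and *Ssr4* (68.1 ± 4.99) followed, each overlapping the next. *Sec61a1* (49.3 ± 2.94), *Sec61b* (42.4 ± 5.27) and *Sec63* (36.6 ± 2.22) came below them, *Ssr1* stood at 21.6 ± 1.97, and *Sec61g* at 1.4 ± 0.321. The coding sequence of *Sec61g* is shared with other annotated genes, so that no ratio to the other channel genes is given. The 4 TRAP genes held 46.4% ± 0.962 (SD, n = 8) of the summed level of the 10 genes in WT and 47.3% ± 0.914 (SD, n = 10) in A226Y. The order depends on the length used: by the longest coding transcript *Ssr4* was the highest in WT, at 207.3 ± 15.3 (SD, n = 8).

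The 10 genes were compared in pairs across mice, with genotype means removed. Of their 45 pairs, 31 had a positive and 14 a negative Pearson correlation over 18 mice, and none passed a permutation test with 100000 resamples after Benjamini-Hochberg adjustment over the pairs. The closest pair was *Sec61a1* and *Sec61b* (r = 0.67, permutation p = 0.00254, adjusted p = 0.114; Spearman rho = 0.67, permutation p = 0.00302, adjusted p = 0.136; r = 0.59 without the 2 mice farthest from the median). *Sec61b* and *Sec61g* followed (r = 0.56, permutation p = 0.016, adjusted p = 0.324), then *Sec61a1* and *Sec61g* (r = 0.52, permutation p = 0.036, adjusted p = 0.324). The most negative pairs were *Sec61a1* with *Sec62* (r = −0.55, and −0.26 without 2 mice) and *Sec63* with *Ssr2* (r = −0.52, and −0.40 without 2 mice). With 18 mice, a pair that did not pass may still vary together. The closest pair of TRAP genes was *Ssr2* and *Ssr4*, with r = 0.40 (permutation p = 0.0988, adjusted p = 0.414).

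The levels of the members were also set beside *Hspa5*, which encodes BiP, the main Hsp70 chaperone of the ER lumen. *Hspa5* was picked after its values were seen, so that its correlations with the 10 genes are a description and no test applies. It was at 350.4 to 807.0 CPM in A226Y (median 516.7) and 379.4 to 591.5 CPM in WT (median 455.2), a log2 fold change of 0.24 (standard error 0.15, edgeR adjusted p = 0.298). Over 18 mice with genotype means removed, *Sec61a1* had r = 0.85 with *Hspa5* and rho = 0.91. Its r was 0.88 within A226Y and 0.80 within WT, 0.80 without the 2 mice farthest from the median of *Hspa5*, and 0.85 without A226Y 29. *Sec61b* had r = 0.70 and rho = 0.65, with r = 0.85 within A226Y, 0.46 within WT and 0.60 without the 2 mice. *Ssr1* had r = 0.58 and rho = 0.62, with r = 0.57 within A226Y, 0.70 within WT and 0.60 without the 2 mice. *Sec61g* had r = 0.56 and rho = 0.54, but r = 0.21 within WT and 0.49 without A226Y 29. *Ssr3* had r = 0.03 over all mice, but −0.25 within A226Y and 0.60 within WT. *Sec63* had r = 0.13, with 0.29 within A226Y and −0.145 within WT. *Tram1* had r = 0.38, with 0.28 within A226Y and 0.60 within WT. *Ssr4* had r = 0.38 and rho = 0.58, with r = 0.26 without the 2 mice. *Ssr2* had r = 0.27 and rho = 0.17, with r = 0.03 without the 2 mice. *Sec62* was negative (r = −0.40, and −0.10 without A226Y 29), with −0.52 within A226Y and −0.09 within WT.

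**Figure D4:**
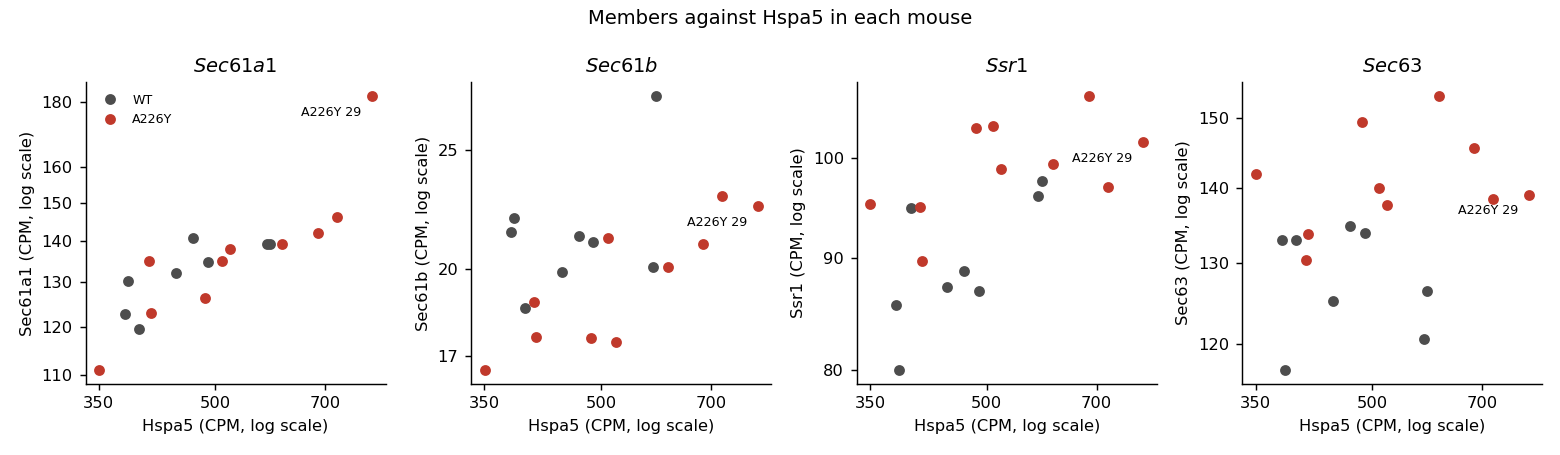
Expression of *Sec61a1*, *Sec61b*, *Ssr1* and *Sec63* (vertical axes, CPM, log scale) against that of *Hspa5* (horizontal axes, CPM, log scale) in each mouse, WT in grey (n = 8) and A226Y in red (n = 10). *Sec61a1* rises with *Hspa5* in both genotypes up to A226Y 29 at 807.0 and 181.8 CPM, while *Sec63* has r = 0.13 with genotype means removed.

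The 5 tested genes outside the list that were most like the mean of the 10 genes, by Pearson correlation of log2 CPM over 18 mice with genotype means removed, were *Calr* (r = 0.81, rho = 0.74), *Gipc1* (r = 0.80, rho = 0.57), *Manf* (r = 0.79, rho = 0.76), *Tmem62* (r = 0.79, rho = 0.73) and *Pef1* (r = 0.79, rho = 0.73). *Calr* encodes the lumenal lectin chaperone calreticulin, and *Manf* a lumenal protein released under ER stress. They were picked for these values out of all tested genes, so that no test applies. Without the 2 mice farthest from the median, r was 0.74 for *Calr* and 0.62 for *Gipc1*. The mean follows *Sec61g*, the most variable and least certain member, at r = 0.85, and has r = 0.0152 with *Sec63*. With *Sec61g* left out of it, an alternative chosen after seeing the data, r was 0.91 for *Calr* and 0.73 to 0.77 for the other 4.

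The promoter of *Hspa5* is known for its stress elements, of which the best known, the ER stress response element (ERSE), is CCAAT, 9 bases and CCACG. RefSeq promoter windows of 250 bases before to 50 after the start site (GRCm38.p6) were at hand for 7 of the 10 genes, without *Sec61a1*, *Ssr2* and *Tram1*. On either strand, the ERSE spacing was present in 0.119% of all 32851 windows, in 0 of the 7 genes, and in *Hspa5*. The related ATTGG, 1 base and CCACG was present in 0.0365% and TGACGTGG in 0.676%, both in 0 of the 7. The ERSE's second part alone, CCACG, was in 32.8% of all windows and in 3 of the 7 genes, *Ssr1*, *Sec63* and *Ssr3*, and its first part, CCAAT, in 37.4% and in 3 of the 7, *Sec61g*, *Sec63* and *Ssr3*. The same genes as for CCACG held it followed by a T (CCACGT, 8.31% of all windows), a motif picked after the windows were seen, from which nothing is read. The stretches that hold these matches are printed 5′ to 3′ on the strand of the gene, with the match in capitals. They are those of the 3 members that hold CCACG on the gene's strand, chosen for that match, beside the full element of *Hspa5*: chr13:37994209-37994301 (minus) for *Ssr1*, chr10:42761454-42761495 (plus) for *Sec63*, chr3:65392718-65392763 (minus) for *Ssr3* and chr2:34772005-34772063 (plus) for *Hspa5*.
*Ssr1*: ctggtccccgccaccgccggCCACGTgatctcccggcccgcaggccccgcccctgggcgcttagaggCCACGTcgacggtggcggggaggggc
*Sec63*: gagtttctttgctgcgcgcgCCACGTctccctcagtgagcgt
*Ssr3*: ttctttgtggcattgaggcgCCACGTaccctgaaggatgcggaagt
*Hspa5*: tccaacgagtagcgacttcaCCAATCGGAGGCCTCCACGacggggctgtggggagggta
*Ssr1* holds the motif at 73 and 26 bases before its start site (first base), *Sec63* at 22 and *Ssr3* at 190. These distances are counted from the RefSeq start site of each window, which for *Ssr1* and *Ssr3* lies inside the GENCODE gene whose ends are given above, so that they are shorter from the GENCODE end. A match describes the letters of the window only.

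Of the other genes of entry into the ER, 58 in 8 lists, 55 were tested and 7 passed (12.7%, beside 14.3% of all tested genes), 5 higher and 2 lower in A226Y. Their median log2 fold change was −0.0058. *Srp54a* and *Tram1l1* had too few counts and *Srp54b* was not among the genes listed. In the oligosaccharyltransferase, which attaches sugar chains to the entering protein, 2 of 12 genes rose and the other 10 had negative fold changes that did not pass. *Stt3b*, a catalytic subunit that acts after or beside the channel, was at 110.9 to 136.9 CPM in A226Y and 93.7 to 105.7 CPM in WT. These ranges did not overlap, and the share of all tested genes without overlap is not given. The log2 fold change of *Stt3b* was 0.26 (standard error 0.05, edgeR adjusted p = 0.00289). That of the related *Stt3a* was −0.06 (edgeR adjusted p = 0.483). *Rpn1*, which encodes ribophorin I, was at 101.8 to 146.1 against 92.7 to 118.7 CPM, a log2 fold change of 0.27 (standard error 0.08, edgeR adjusted p = 0.0274). Leaving out A226Y 7, WT 13, WT 24 or WT 28 ended that call, with log2 fold changes of 0.2486, 0.2506, 0.2483 and 0.242 and edgeR adjusted p-values of 0.0512, 0.0563, 0.0573 and 0.0522.

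*Tram2*, the paralogue of *Tram1*, was at 20.3 to 28.3 CPM in A226Y and 16.4 to 22.2 CPM in WT, and 7 A226Y mice were above every WT mouse. Its log2 fold change was 0.33 (standard error 0.07, edgeR adjusted p = 0.00681), against 0.01 for *Tram1*. *Sec61a2*, the paralogue of the pore gene, did not pass (0.12, edgeR adjusted p = 0.48). In the multipass translocon, which inserts proteins with many membrane spans behind the pore, *Nomo1* was the 1 of 6 genes that passed (0.30, standard error 0.07, edgeR adjusted p = 0.00907). In the EMC, a separate insertase, *Mmgt1* rose (0.26, standard error 0.06, edgeR adjusted p = 0.0108) and *Emc9* fell (−0.39, standard error 0.09, edgeR adjusted p = 0.01), and the other 8 did not pass.

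Among the lumenal partners of the pore, *Sil1*, a nucleotide exchange factor of BiP, was at 46.0 to 54.5 CPM in A226Y and 52.2 to 61.9 CPM in WT, and 9 of 10 A226Y mice were below every WT mouse. It fell by 0.23 on the log2 scale (standard error 0.04, edgeR adjusted p = 0.00387), while *Hspa5* (0.24), *Hyou1* (0.30) and *Dnajc1* (0.07) had positive fold changes that did not pass. No gene passed among SRP and its receptor (0 of 8, smallest p at *Srpr*, the receptor's SRP-binding subunit, with 0.10 and edgeR adjusted p = 0.207), signal peptide processing (0 of 6, *Spcs1*, −0.10, adjusted p = 0.175) or the insertion of tail-anchored proteins (0 of 7, *Get4*, 0.15, adjusted p = 0.152). *Get4* passed with the GC offset (0.22, adjusted p = 0.0352) and without WT 24 (0.21, adjusted p = 0.0375). *Srpr* was at 0.0282 with surrogate variables, and *Spcs1* at −0.0288 with the length offset. With surrogate variables as covariates, *Stt3b* was the 1 of 55 genes past the threshold, where 1.86% of all tested genes passed. Its log2 fold change was then 0.23 (edgeR adjusted p = 0.0439). The other 6 kept their direction, at 0.24 for *Mmgt1*, 0.20 for *Tram2*, 0.18 for *Rpn1*, 0.13 for *Nomo1*, −0.18 for *Sil1* and −0.21 for *Emc9*, with adjusted p-values from 0.0617 (*Mmgt1*) to 0.211 (*Nomo1*).

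**Figure D5:**
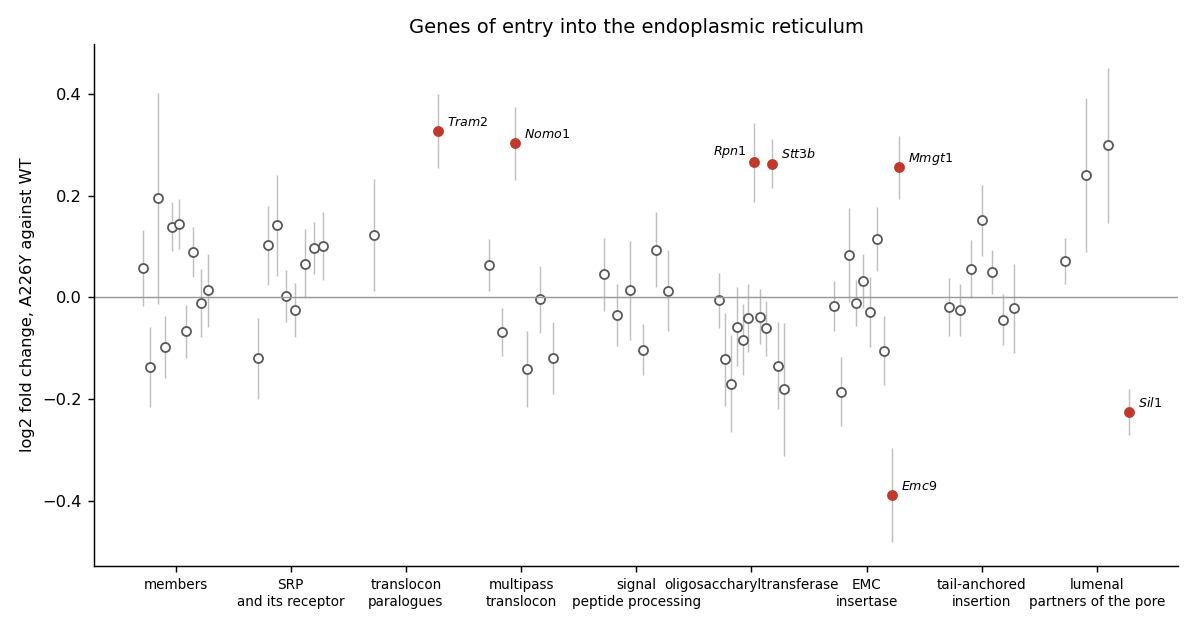
Log2 fold change of A226Y against WT (vertical axis) with its standard error for the 10 members and the 55 tested genes of 8 other lists of ER entry, each point a gene; filled points passed an adjusted p-value of 0.05 in edgeR's test. The 7 filled points lie in 5 of the 8 lists, 5 above and 2 below 0, and none is a member.

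Cell type markers were set beside these results. All 7 tested B and plasma cell markers (median log2 fold change −0.74), all 5 T cell markers (−0.42), all 5 red blood cell markers (−0.45) and 4 of 5 Kupffer cell markers (−0.46) had negative fold changes, of which 1, a Kupffer cell marker, passed. Over all tested genes, 6804 of 13353 fold changes were negative. Yet each of the 7 B and plasma cell markers had a higher median CPM in A226Y than in WT, with *Igkc* at 45.2 against 38.2 CPM. All 5 cholangiocyte markers (0.21) and all 3 tested neutrophil markers (0.74) had positive fold changes, and none passed. Summed over the list, neutrophil markers had medians of 3.29 CPM in A226Y and 3.07 CPM in WT, with A226Y 29 at 46.9 CPM. By median, *S100a9* was lower in A226Y (1.47 CPM) than in WT (1.70 CPM). The part of the cell type markers in the values of the members was not tested. A226Y 29 had the lowest hepatocyte marker sum of all mice, 65660 CPM, of which albumin (*Alb*) made up 48040 CPM. *Tat*, another marker of the list, was instead highest in that mouse (5811 CPM). *Tat* was the marker that passed as higher in A226Y (log2 fold change 0.85, edgeR adjusted p = 0.0331). The stellate cell marker *Col1a1* passed as lower (−0.77, edgeR adjusted p = 0.0162). The summed B and plasma cell markers, cells rich in translocon transcripts, reached 1104.0 CPM in WT 33, 564.3 CPM in WT 13 and 424.2 CPM in A226Y 3, against medians of 123.1 CPM in A226Y and 104.8 CPM in WT. Kupffer cell markers ranged from 214.8 to 900.2 CPM in A226Y (median 295.0) and from 323.2 to 665.9 CPM in WT (median 478.7), with 1 of 5 lower. Red blood cell markers ranged from 163.8 to 422.0 CPM in A226Y and from 207.7 to 764.2 CPM in WT. Without WT 33, the log2 fold changes of *Sec63* and *Ssr1* were 0.15 and 0.14, without WT 13 they were 0.13 and 0.14, and without A226Y 3 they were 0.14 and 0.15. With library size as the only scaling both genes were past the adjusted threshold, where 10.5% of all genes were higher.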

How the data were processed

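Liver RNA of 18 mice was analysed. The authors deposited an unnormalized read count for each Ensembl gene and mouse, in whole numbers. The submitters' processing notes name bcl2fastq, MultiQC, fastp, STAR, featureCounts and GRCm38, whereas the study's methods name RSEM, single-end reads and an Ensembl annotation of GRCm37, so neither the step nor the annotation that gave the counts is settled. A gene was tested where 50% or more of either group reached 10 counts, with edgeR 4.0.16 in R 4.3.3 (TMM scaling, quasi-likelihood fit, no covariates, Benjamini-Hochberg adjustment). The standard error was derived from the F statistic and the log2 fold change, and permutation tests used log2 CPM with a prior count of 2 over all 43758 divisions of the mice. Mice of one genotype were distinct (chi-square per degree of freedom at least 19.8 in 73 pairs). Counting error is small at these depths except for *Sec61g*, with 20 to 95 counts per mouse. Symbols, lengths and positions came from GENCODE M21, which matched 22291 of 22524 identifiers and need not be the annotation behind the counts. Intervals of fold changes use the same model.

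Alternatives were 3 other scalings, 2 other filters, DESeq2 1.42.0, limma-voom 3.58.1, edgeR's likelihood ratio test, 4 surrogate variables (sva 3.50.0), loess offsets for length or GC content (span 0.3), a prior count of 0.5 and leaving out each mouse. The 10 genes and all lists were chosen with earlier results of these data known. Named were the 10 genes, *Rps2*, in each list of ER entry the genes past the threshold or else the one with the smallest p, and the 5 genes most like the members' mean. *Saa1*, *Hspa5*, *Hyou1*, *Dnajc1*, *Sec61a2* and *Stt3a* were named after their values were seen, as were the cell type markers given singly.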

Additional observations from a re-analysis of the deposited data

Results flagged for a closer look

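In 4 of the 20 groups (10 genes in 2 genotypes), 1 mouse was far from the others by Dixon's criterion, which flags about 1 in 20 groups by chance. *Sec61a1* was 181.8 CPM in A226Y 29, with the next mouse at 146.3 CPM. *Sec62* was 173.7 CPM in the same mouse, with the next at 208.9 CPM. *Sec61b* was 27.7 CPM in WT 14, with the next at 22.02 CPM, and *Ssr4* was 96.4 CPM in WT 6, with the next at 87.2 CPM. A226Y 29 also had the highest *Saa1* and *Hspa5*, the highest summed Kupffer cell and neutrophil markers, the lowest summed hepatocyte markers (65660 CPM) and the highest GC slope (0.1856) of all mice. *Sec61a1* has 53.9% GC and *Sec62* 42.4%. The part of these differences in its *Sec61a1* and *Sec62* values was not tested.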

How the results depend on the processing

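The count of members past the adjusted threshold was 0 in edgeR's fit, 1 with RLE scaling (*Ssr1*, adjusted p = 0.0498), 2 with library size only and 2 with DESeq2 (*Sec63* and *Ssr1*, adjusted p = 0.0101 and 0.013), and 0 to 1 with 1 mouse left out: *Sec63* passed without A226Y 5, WT 6 or A226Y 29 (adjusted p = 0.0429, 0.0474 and 0.0442) and *Ssr1* without WT 14 or A226Y 22 (0.0484 and 0.041). Over all genes, the 1910 calls went to 2011, 2504 and 2560 without A226Y 5, WT 6 and A226Y 29, and to 1255 and 1731 without WT 14 and A226Y 22, the lowest and highest of all 18 such fits being 1255 and 2560. The calls over all genes were 1880 with RLE scaling, 2059 with library size only and 2418 with DESeq2. With the length offset they were 1544, and with the GC offset 1629. Over the 11 other settings the adjusted p ranged from 0.0101 to 0.421 for *Sec63* and from 0.013 to 0.944 for *Ssr1*, and neither changed sign in any fit. At an unadjusted p under 0.05, 29.6% of all tested genes passed in edgeR's fit. That share is not given for the other settings. The member count at that level was 2 (*Sec63* and *Ssr1*), but 1 with the length offset (*Ssr3*, higher) and 1 with the GC offset (*Sec62*, lower). It was 3 with library size only and with DESeq2 (*Sec63*, *Ssr1* and *Ssr3*), 3 with surrogate variables (*Ssr1*, *Ssr3* and *Tram1*, with *Sec63* at a log2 fold change of 0.0809 and an adjusted p of 0.421), and 2 to 3 with 1 mouse left out. The log2 fold change of *Ssr2* was 0.0059 with the length offset. That of *Ssr4* was 0.0341 with library size only, 0.0451 with the GC offset and 0.0697 with the length offset, −0.0938 with surrogate variables, and −0.037 to 0.0245 with 1 mouse left out. That of *Tram1* was −0.055 with the GC offset, 0.136 with surrogate variables, and −0.0137 to 0.0595 with 1 mouse left out. The count of genes of other ER entry lists was 1 with surrogate variables, against 7, while that over all genes was 248 against 1910. The count of these ER entry genes was 8 with DESeq2 and with the GC offset, where 2418 and 1629 of all genes passed. It was 6 to 8 with 1 mouse left out. The TRAP share of the members' summed level in WT was 54.8% by the longest coding transcript, against 46.4%. The cause of these shifts was not tested. No paired analysis was made because the labels name no litter or other pairing of the mice. The low counts of *Sec61g* and the shared stretches of *Sec61g* and *Sec61b* limit their values.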
